A study of Caenorhabditis elegans with 2 samples.

Results

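The 8 genes described here are let-526, bet-1, bet-2, zfp-1, lsy-22, din-1, lin-40 and lin-59 of Caenorhabditis elegans, 8 of 19973 protein-coding genes on the 6 nuclear chromosomes. They encode chromatin regulators and were chosen by the strength of HAM-2 peaks in and before them in the same peak lists, so their peak signals are given as a description and no test was made. For each gene the summits, which are the single bases at which the peaks are highest, were taken from 5 kb upstream of its annotated 5′ end to its far end. HAM-2 is a nuclear protein with zinc fingers, known from mutants in which the HSN neurons, which drive egg laying, fail to migrate fully.

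The peaks come from chromatin immunoprecipitation followed by sequencing (ChIP-seq) of whole embryos, with an antibody against GFP. All embryos were of strain OP639, in which the integrated transgene wgIs639 makes HAM-2 joined to TY1, EGFP and 3xFLAG tags and also carries unc-119(+), in an unc-119(tm4063) background. They were collected by egg bleaching as mixed-stage, mixed-sex embryos of 3 hours, and their chromatin was sonicated to 200 to 800 bp. There were 2 biological replicates, numbered 6 and 7, each with 1 technical replicate, of this single group, so no comparison between conditions exists. The model is limited to 1 transgenic line that makes a tagged copy of the protein, a line without the tag was not analysed here, and whole embryos do not show in which cells a peak arises.

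Chromatin regulators change how tightly DNA is packed or which marks its histones carry, and thereby set which genes a cell can use. BET proteins such as BET-1 and BET-2 bind acetylated histones through their bromodomains. LET-526 is the ARID subunit of a SWI/SNF complex, which moves nucleosomes with energy from ATP, LIN-40 is the MTA subunit of the NuRD complex, which joins remodelling to histone deacetylation, and LIN-59 is an ASH1-type SET-domain protein of the trithorax group. ZFP-1, the worm relative of mammalian AF10, works with the histone methyltransferase DOT-1.1, and LSY-22 and DIN-1 are corepressors related to Groucho-family proteins and to mammalian SHARP.

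The list called reproducible here was thresholded by the submitters on the irreproducible discovery rate (IDR) and made from both replicates. It held exactly the 1945 strongest peaks of the list called on both replicates pooled. A place in it therefore does not show by itself that the replicates agree on a peak. Each of the 8 windows held at least 1 summit of this list, and 23 such summits were found in all. Over all protein-coding genes, 2637 of 19973 windows held one, which is 13.2%. The genes divided into 4 with 1 summit each (bet-1, bet-2, lin-40 and lin-59) and 4 with 4 or more (zfp-1 with 6, lsy-22 with 5, let-526 and din-1 with 4 each). Of the 1945 reproducible peaks, ranked by signal from the strongest down, 5 of the 50 strongest lay in windows of let-526, bet-2, zfp-1 and din-1. The peaks of bet-1 and lin-40 were not strong: their signals of 108.3 and 109.2 stood just above 105.3, the lowest signal of the list, against a median of 152.4 and a highest value of 1164.3. The signal is the authors' own value for each peak, with its scaling not stated, and signals are set beside each other only within one list.

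The signals ran on without a step at the threshold. The summits of the 8 genes just inside it were those of bet-1, at 108.3 and rank 1838, and lin-40, at 109.2 and rank 1805. Just outside it, in the list called on both replicates pooled, were an intronic zfp-1 summit of 103.1 at rank 2013 and a lin-59 summit of 101.5 at rank 2070 that lay 676 bp upstream of that gene.

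**Figure D1:**
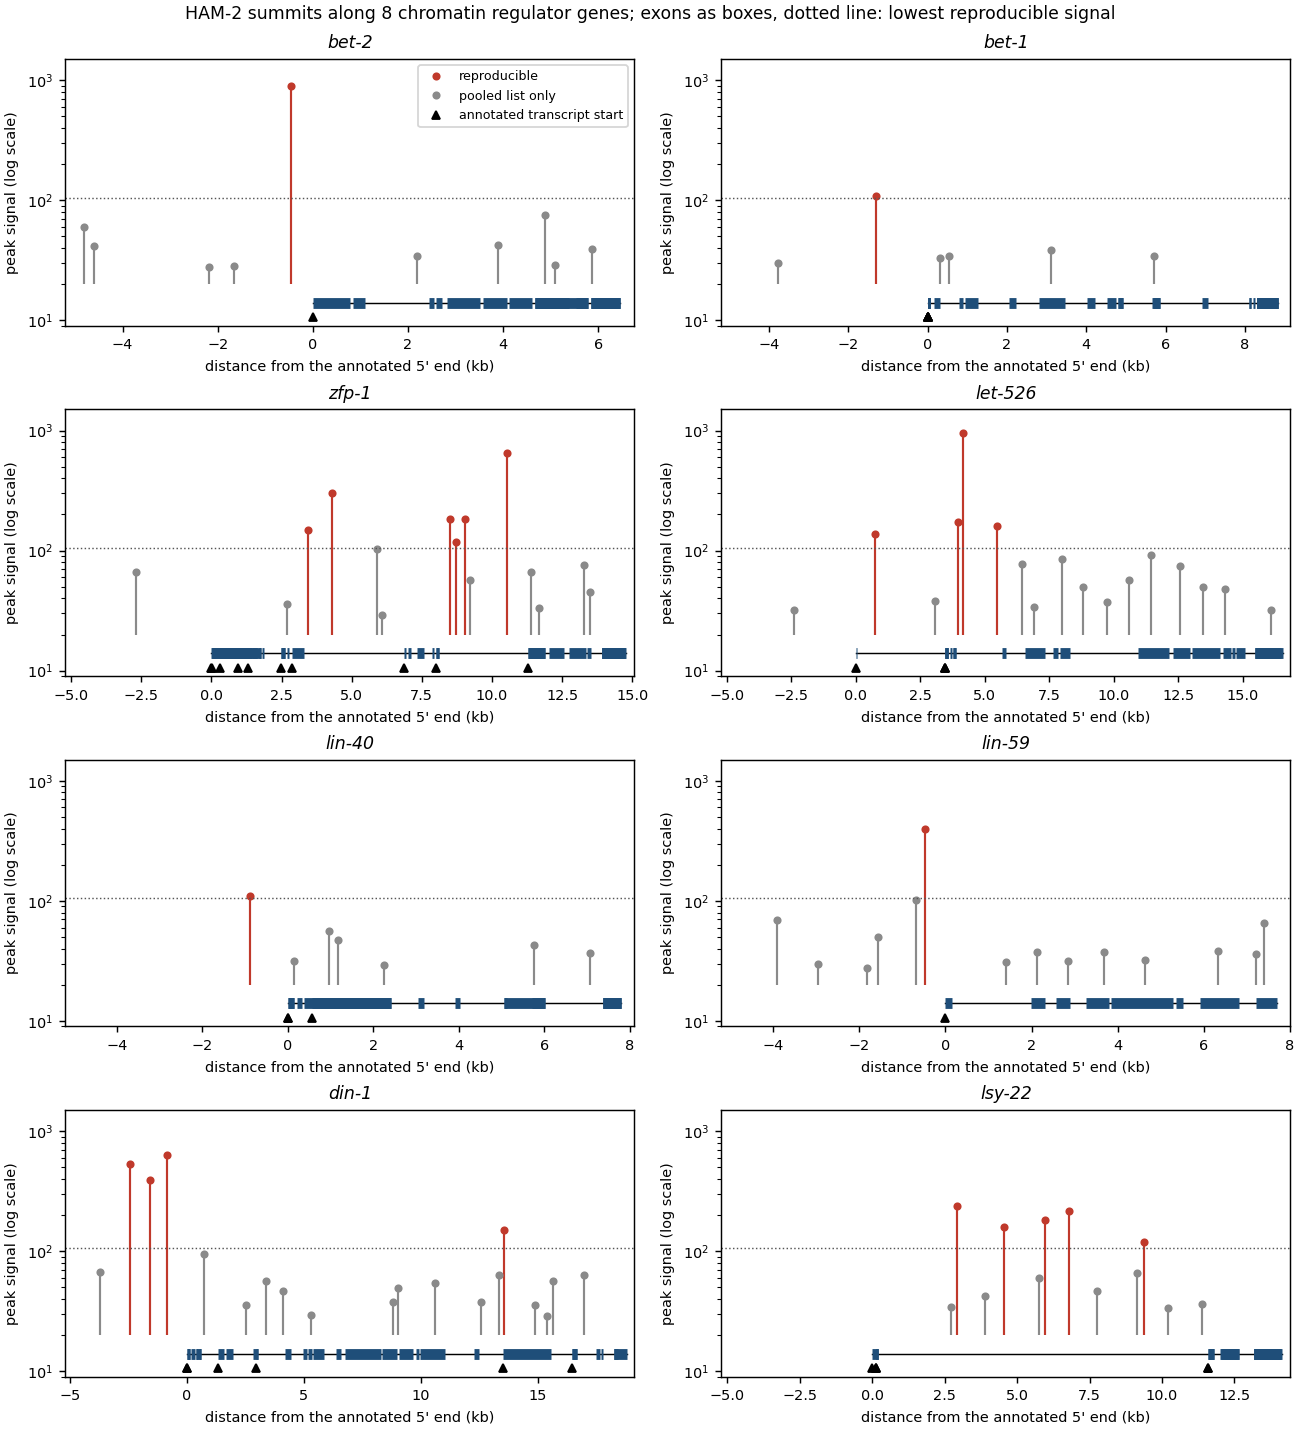
Signal of every summit of the pooled list (vertical axis, log scale) against its distance in kb from the annotated 5′ end of the gene (horizontal axis), with 1 panel for each of the 8 genes. Red stems are reproducible summits, grey stems are summits of the pooled list only, boxes are exons, triangles are annotated transcript starts and the dotted line is the lowest reproducible signal, 105.3. The tall stems stand before the gene in bet-2, lin-59 and din-1 and inside it in let-526, zfp-1 and lsy-22.

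The gene bet-2, which encodes a protein with bromodomains of the BET type, lies on the plus strand at X:10569273-10575725 (ce11, the same assembly as WBcel235). Its single reproducible peak, X:10568505-10569040, peaked 453 bp before the annotated start that all 4 transcripts share, and the nearest start of another protein-coding gene was 8133 bp away. The signal was 902.9, rank 7 of all reproducible peaks, and the same summit had 522.1 at rank 9 in replicate 6 and 382.8 at rank 4 in replicate 7. The summit base with 50 bases on each side is printed because it is the strongest of the 23 sites that lies before a gene; here and below the plus strand of the RefSeq WBcel235 genome is shown, and capitals mark the 6-base words described further on. At X:10568770-10568870 the bases were:
bet-2: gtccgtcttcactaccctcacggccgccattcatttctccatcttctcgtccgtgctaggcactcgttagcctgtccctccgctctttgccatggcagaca
No capital stands in this window, whose GC content was 57.4%. In the pooled list the bet-2 window held 9 further summits, the strongest of them a coding-exon summit of 75.1 at rank 3655. Replicate 6 listed 5 summits in the window and replicate 7 listed 7, and in each of these lists only the peak at the start belonged to the 1945 strongest, called the top list below.

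The gene zfp-1, on the plus strand at III:8791535-8806305, encodes a PHD zinc-finger protein and has 11 annotated transcripts whose starts form 6 clusters more than 500 bp apart. It held 6 reproducible summits, the most of the 8 genes in that list, and all 6 lay in introns. In a pooled list 2 times as long zfp-1 and let-526 had 8 summits each. The strongest, in the peak III:8801864-8802248, had a signal of 655.3 at rank 22, with 415.3 at rank 19 in replicate 6 and 233.9 at rank 34 in replicate 7. It lay 10526 bp inside the gene, 758 bp upstream of the start of a short transcript. The second strongest, III:8795689-8795994, had 303.7 at rank 222, with 217.3 at rank 173 in replicate 6 and 91.0 at rank 405 in replicate 7. The windows of both sites, III:8802011-8802111 and III:8795781-8795881, are shown as the pair that leads this gene, numbered from the upstream end of the window as in the other genes, and neither holds a capital:
zfp-1 site 6: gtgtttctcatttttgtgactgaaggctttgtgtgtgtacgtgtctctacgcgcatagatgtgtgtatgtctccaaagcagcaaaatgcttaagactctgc
zfp-1 site 2: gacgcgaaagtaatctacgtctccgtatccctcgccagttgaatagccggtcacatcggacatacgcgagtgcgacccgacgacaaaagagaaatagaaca
The first of these windows had a GC content of 43.6%, the lowest of the 23, and the second one of 51.5%.

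The other 4 zfp-1 summits had lower signals. The one at 3431 bp inside the gene had 149.7 at rank 1004 and shared its intron, 3573 bp to 4254 bp long by transcript, with the second strongest. The summits at 8502, 8730 and 9027 bp had 181.7, 118.2 and 182.2 and shared an intron of 3179 bp with the strongest. In the replicates all but one of these 4 were found within 100 bp in both lists: the summit at 8730 bp had 115.7 at rank 713 in replicate 6 and no match in replicate 7. It stood 228 and 297 bp from its neighbours on either side, both of which had a match in replicate 7. The summit at 9027 bp also lay inside the small gene F54F2.6, on the opposite strand, 139 bp from its start, so it lies within both genes. All 6 summits were in the top list of replicate 6, and 5 of them were in that of replicate 7. The pooled list held 15 summits in the window, 9 in introns, 5 in exons and 1 upstream.

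The gene din-1, on the minus strand at II:11614770-11633609, encodes a corepressor that binds the nuclear hormone receptor DAF-12. It has 7 transcripts with starts in 5 separate clusters, and 3 of its 4 reproducible summits formed a row before the gene. Going towards the gene they lay 2458, 1564 and 841 bp upstream of its 5′ end, with 894 and 723 bp between neighbours. Their signals were 536.9 at rank 50, 388.5 at rank 116 and 631.8 at rank 26. In replicate 6 they had 331.4, 255.3 and 421.7, at ranks 53, 106 and 16, and in replicate 7 197.0, 129.8 and 204.1, at ranks 62, 180 and 56. In all 3 lists the site nearest the gene was thus the strongest of the row and the middle one the weakest. The row is printed to show how unlike its 3 sites are in base content, at II:11636017-11636117, II:11635123-11635223 and II:11634400-11634500:
din-1 site 1: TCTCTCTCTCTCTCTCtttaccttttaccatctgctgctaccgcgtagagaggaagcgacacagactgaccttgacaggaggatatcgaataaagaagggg
din-1 site 2: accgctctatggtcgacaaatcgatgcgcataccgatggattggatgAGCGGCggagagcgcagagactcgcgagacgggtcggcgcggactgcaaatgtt
din-1 site 3: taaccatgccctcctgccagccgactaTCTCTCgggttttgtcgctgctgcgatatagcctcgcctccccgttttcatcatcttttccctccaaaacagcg
The capitals are a run of the TC repeat in site 1, a single TCTCTC in site 3, each of which reads GAGAGA on the other strand, and the word AGCGGC in site 2. The GC contents were 48.5%, 59.4% and 54.5%. The site in the middle lay within 250 bp of the snoRNA gene ZK20.9.

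The remaining din-1 summit, II:11619829-11620248, lay 13570 bp inside the gene in a 5′ UTR exon of a short transcript, 39 bp from that transcript's start, and within 250 bp of the snoRNA gene F07A11.15. It had a signal of 151.3 at rank 987, with 91.3 at rank 1123 in replicate 6 and 63.1 at rank 889 in replicate 7, and a GC content of 67.3%, the highest of the 23. This was the only one of the 23 summits in an exon. The pooled list held 19 summits in the din-1 window, 9 in introns, 6 in exons and 4 upstream, and replicates 6 and 7 listed 18 and 19.

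The gene lin-40, on the plus strand at V:3704988-3712796, had 1 reproducible peak, V:3703890-3704309 and it peaked 888 bp before the 5′ end. Its signal was 109.2 at rank 1805. In replicate 6 the summit had 79.9 at rank 1433, and in replicate 7 it stood at rank 5697, outside the top list. The strongest lin-40 summit of replicate 7 was another one, 5725 bp inside the gene and 6613 bp from the pooled one, with 32.3 at rank 5539. The window at V:3704050-3704150 is given as the weak end of the set beside the strong sites above, and its capitals again mark TCTCTC:
lin-40: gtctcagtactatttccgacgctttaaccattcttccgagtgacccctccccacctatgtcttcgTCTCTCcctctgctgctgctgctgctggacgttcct
The pooled list held 6 further summits in the window, the strongest a coding-exon summit of 56.4 at rank 6956.

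The other 4 genes have no sequence shown. Among them let-526, on the minus strand at I:5300852-5317392, had the strongest summit of all 8 genes. It lay in the peak I:5312831-5313493, 4178 bp inside the gene, with a signal of 953.5 at rank 5. In replicate 6 it had 610.5 at rank 3 and in replicate 7 336.3 at rank 9. The same deposited interval held another summit, 200 bp away, of 173.4 at rank 744, and a further summit at 5473 bp had 160.8 at rank 870. These 3 lay in 1 intron of all 5 transcripts, and the strongest was 708 bp downstream of the starts of the shorter transcripts. The summit nearest the 5′ end, 738 bp inside the gene in the first intron of the 2 long transcripts, had 138.7 at rank 1150, with 114.4 at rank 736 in replicate 6 and 31.9 at rank 5770 in replicate 7. The replicates thus placed that summit far apart in rank, and they placed the strongest one alike. The pooled list had 13 more let-526 summits, 7 of them in exons, and none of the 13 was above 91.0. The window had 23 summits in replicate 6, with 15 in introns, 6 in exons and 2 upstream, and 15 in replicate 7, with 9, 5 and 1.

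For lsy-22, on the minus strand at I:7704511-7718639, all 5 reproducible summits lay in the first intron of its 4 long transcripts, which is 11392 bp long. LSY-22 is needed for the left-right difference between the ASE taste neurons. From the 5′ end inwards the summits stood at 2919, 4554, 5963, 6780 and 9364 bp, with signals of 237.2, 157.9, 180.7, 214.1 and 118.3. In replicate 6 they had 157.0, 106.1, 125.8, 135.9 and 52.8, and in replicate 7 81.2, 45.8, 60.7, 78.6 and 56.2. The first and the fourth were the strongest of the 5 in all 3 lists. No site dominated as in let-526 or bet-2, and the nearest annotated lsy-22 transcript start was 2219 to 5620 bp away from each. The intron took up most of this gene: introns made 63.3% of the window, exons 10.5% and the upstream part 26.1%. All 12 pooled summits of the window were in introns, as were 11 of 12 in replicate 6 and 11 of 11 in replicate 7.

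The gene lin-59, on the minus strand at I:3713449-3721157, has 1 annotated transcript and had 1 reproducible summit, 473 bp upstream of its start. The signal was 397.7 at rank 108, with 229.4 at rank 145 in replicate 6 and 159.9 at rank 117 in replicate 7. The pooled summit of 101.5 given above stood further upstream, 676 bp before the gene. The pooled list held 14 summits in this short window, with 1 in an intron, 7 in exons and 6 upstream, against a median of 4 in genes of like length.

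The gene bet-1, on the minus strand at I:4525961-4534805, keeps cells in their fates as a reader of acetylated histones. Its single reproducible summit, I:4535886-4536305, lay 1291 bp upstream of the 5′ end and had 108.3 at rank 1838. The replicate 6 peak matched to it within 100 bp lay 87 bp away, with 31.4 at rank 8636, and the replicate 7 peak lay 60 bp away, with 41.3 at rank 2553. It was the only one of the 23 in neither top list. The strongest replicate 6 summit of the bet-1 window lay 119 bp from the pooled summit, with 69.2 at rank 1889, which is past the distance allowed for a match. The 2 BET genes therefore had 1 reproducible summit each before the gene, with signals of 902.9 for bet-2 and 108.3 for bet-1.

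By its strongest reproducible summit the order was let-526 (953.5), bet-2 (902.9), zfp-1 (655.3), din-1 (631.8), lin-59 (397.7), lsy-22 (237.2), lin-40 (109.2) and bet-1 (108.3). By the strongest summit of each window in each replicate, 3 neighbouring pairs changed places. In replicate 7 bet-2 (382.8) stood above let-526 (336.3), while in replicate 6 let-526 (610.5) stood above bet-2 (522.1). In replicate 6 din-1 (421.7) stood above zfp-1 (415.3), while in replicate 7 zfp-1 (233.9) stood above din-1 (204.1). In replicate 6 lin-40 (79.9) stood above bet-1 (69.2), and in replicate 7 bet-1 (41.3) stood above lin-40 (32.3). So these pairs cannot be put in order beyond the difference between the replicates, and lin-59 and lsy-22 kept the fifth and the sixth place in both.

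**Figure D2:**
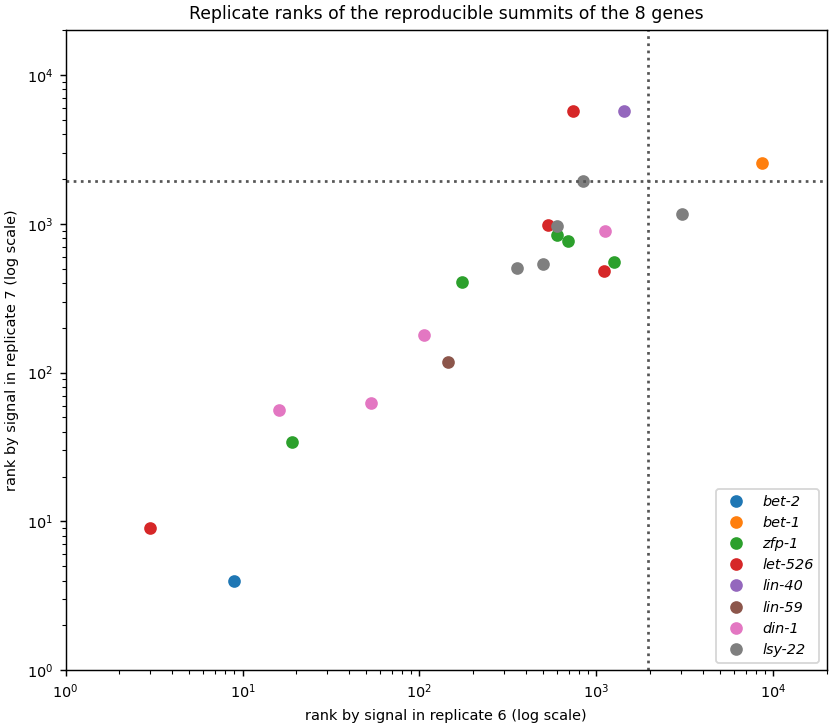
Rank by signal in replicate 7 (vertical axis, log scale) against rank in replicate 6 (horizontal axis, log scale) for the reproducible summits of the 8 genes that have a match within 100 bp in both replicates. Each point is 1 summit, coloured by gene, and the dotted lines mark the end of each replicate's top list. The points of bet-2, the strongest let-526 summit and the din-1 row lie at low ranks in both, and lin-40, bet-1 and single summits of let-526 and lsy-22 lie past a dotted line.

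Of the 23 summits 22 had a match within 100 bp in both replicates, with a median shift of 5.5 bp in replicate 6 and 14 bp in replicate 7. In both top lists were 18 of them, 4 were in 1 top list and 1 in neither. Over all reproducible summits, 60.8% were in both top lists, 35.7% in 1 and 3.5% in neither. The strongest summit of 6 of the 8 genes was in both top lists, the exceptions being bet-1 and lin-40. Since reproducible peaks are exactly the 1945 strongest of the pooled list, and the genes were chosen by that signal, high ranks in the replicates that make up the pool are not independent of the choice.

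Each gene was set beside the other protein-coding genes whose span is 0.8 to 1.2 times its own. A reproducible summit was present in the windows of 100 of 337 such genes for let-526 (29.7%), 241 of 976 for bet-1 (24.7%), 314 of 1447 for bet-2 (21.7%) and 127 of 436 for zfp-1 (29.1%). It was present in 134 of 483 for lsy-22 (27.7%), 87 of 250 for din-1 (34.8%), 259 of 1119 for lin-40 (23.1%) and 262 of 1117 for lin-59 (23.5%). Over the 2806 genes matched to any of the 8 it was present in 687, which is 24.5%. The share was highest beside din-1, the longest of the 8 genes with a span of 18840 bp, and lowest beside bet-2, the shortest with 6453 bp. The 8 genes, being chosen for peaks, are not read against these shares.

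For let-526, bet-2 and zfp-1 none of the 337, 1447 and 436 length-matched genes had as strong a summit, in the reproducible list or as the strongest of the window in either replicate list. For din-1 2 of 250 had one, lin-42, the worm relative of the clock gene Period, with 796.0, and dhc-4, with 761.3. For lin-59 21 of 1117 had one and for lsy-22 28 of 483. For lin-40 247 of 1119 had one and for bet-1 230 of 976, so these 2 genes stood near the bottom of the 259 and 241 length-matched genes that have any. The median strongest signal of length-matched genes with a summit was 149.5 to 161.8 in the 8 sets, which is above lin-40 and bet-1 and below the other 6.

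**Figure D3:**
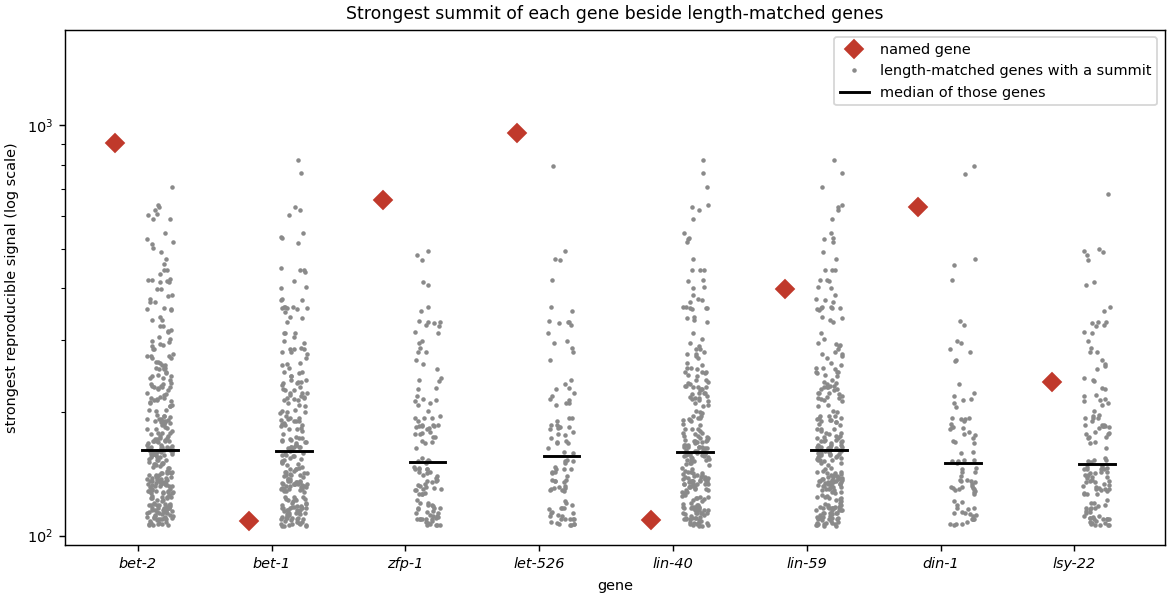
Strongest reproducible signal in the gene's window (vertical axis, log scale) for each of the 8 genes (red diamonds) and for length-matched genes that have a reproducible summit (grey points), with the median of those genes as a black bar. Diamonds for let-526, bet-2 and zfp-1 lie above every grey point beside them, and those of bet-1 and lin-40 lie at the lower edge.

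By the number of reproducible summits the genes took other places. Each summit counts as 1 here. Some neighbours in let-526 and zfp-1 stood only 200 to 297 bp apart, within the sonicated sizes of 200 to 800 bp. Such neighbours were not merged, in these genes or in the others. Only 1 length-matched gene had as many as zfp-1 and only 1 as many as lsy-22, in both cases Y111B2A.12, with 6 summits and 207.6 as its strongest. As many as the 4 of let-526 were found in 3 genes, lin-42 with 4, Y111B2A.12 with 6 and miz-1 with 4. As many as the 4 of din-1 were found in 3 genes, lin-42 with 4, lit-1, which encodes a Nemo-like kinase, with 6, and C44H4.4 with 4. So lsy-22 was high in number and only moderately high in strength, and bet-2 was high in strength with a single summit. In the pooled list, which also holds weak peaks, 6 of 1117 length-matched genes had as many summits as the 14 of lin-59, 10 of 250 as many as the 19 of din-1, 13 of 337 as many as the 17 of let-526, and 22 of 436 as many as the 15 of zfp-1. There were 41 of 1447 with as many as the 10 of bet-2, 62 of 483 with as many as the 12 of lsy-22, 247 of 1119 with as many as the 7 of lin-40 and 361 of 976 with as many as the 6 of bet-1.

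The length-matched gene most like each of the 8 was found by the same number of reproducible summits, then the same gene part of the strongest, then the smallest log2 difference in its signal. For let-526 it was lin-42 (log2 difference -0.26), for bet-2 ZK265.7 (705.5, log2 difference -0.36) and for zfp-1 Y111B2A.12 (log2 difference -1.66). For lin-59 it was efa-6 (403.1, log2 difference 0.02), for lin-40 copb-1 (109.2, log2 difference 0.00), and for bet-1 rga-4 (108.8, log2 difference 0.01). No length-matched gene met the first 2 conditions for lsy-22 or din-1. The likeness holds for peaks in 1 pooled list from 2 replicates.

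In the 8 windows 15 of the 23 summits (65.2%) lay in introns, 7 upstream and 1 in an exon. Of the 7 upstream summits 2 lay within 500 bp of the 5′ end, those of bet-2 and lin-59, and 5 lay further away. All 15 intronic summits came from zfp-1, lsy-22 and let-526, so the share describes these 3 genes. In length-matched windows of any of the 8 genes, over 912 pairs of gene and summit, 36.6% were in introns, 58.4% upstream and 4.93% in exons. For the 3 genes with intronic summits the shares in introns of their own length-matched genes were 85 of 144 (59%) for let-526, 92 of 172 (53.5%) for zfp-1 and 93 of 183 (50.8%) for lsy-22.

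Weak summits lay elsewhere in these windows. Of the 100 pooled summits of the 8 genes 77 were outside the reproducible list, 36 of them (46.8%) in exons, 28 (36.4%) in introns and 13 (16.9%) upstream. In length-matched windows, over 12612 pairs of gene and summit outside the reproducible list, 25.2% were in exons, 36.8% in introns and 38% upstream. These pairs pool the genes matched to any of the 8. The share of exon and upstream bases in their windows is not given here, so the difference may reflect the make-up of the windows, which was not tested. Exons made up 10.5% of the window in lsy-22, where no summit of any list was exonic, and 41.3% in bet-2 and 41% in din-1. The replicates gave like counts: replicate 6 listed 100 summits in the 8 windows, 50 in introns, 28 in exons and 22 upstream, and replicate 7 listed 83, with 39, 27 and 17. Replicate 6 listed 7 summits for bet-1, 8 for lin-40 and 11 for lin-59, and replicate 7 listed 3, 6 and 9 for the same genes.

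Within 500 bp of a start of the gene itself were 3 of 23 summits (13%), those of bet-2 and lin-59 and the exonic one of din-1, against 23.7% of pairs in length-matched windows. The zfp-1 summit at 8502 bp and the let-526 summit at 3978 bp lay just past that limit, 504 and 508 bp from a start. The share of 13% therefore depends on where the limit is set, and no avoidance of starts is read from it. Between 500 and 1100 bp were 10 summits (43.5%), these just past 500 bp included. That upper limit was set after the distances of these summits were seen, so the share is not read against other genes. Of these 10, 2 lay upstream, in din-1 and lin-40, and 8 in introns. For 7 of the 8, 5 in zfp-1 and 2 in let-526, the nearest start was that of a transcript beginning inside the gene. The nearest protein-coding transcript start of any gene was that of the gene itself for 21 of 23, and the exceptions were the zfp-1 summits at 8730 and 9027 bp, which were nearer to F54F2.6. By their windows, 10 of the 23 summits could also be given to another protein-coding gene: fbxa-145 and F48C1.3 for let-526, ztf-1 and F54F2.6 for zfp-1, and F27D4.12 for lsy-22. None of the summits of bet-1, bet-2, din-1, lin-40 or lin-59 lay in the window of another protein-coding gene. Within 250 bp of a short noncoding gene were 2 of 23 summits, both of din-1, against 13.3% of all reproducible summits.

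The median GC content of the 23 summit windows was 51.5% (range 43.6% to 67.3%), against 49.5% over all reproducible summits. Peaks of the width the caller gave most often, 420 bp, were 10 of the 23, against 77.4% of all reproducible peaks.

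Words of 6 bases were ranked by how much more often they stood near the 1922 other reproducible summits than in flanks 250 bp downstream, on both strands, among words found at 5% or more of those summits. The 5 highest were GCACGC, found at 6.14% of the other summits, AGCGGC at 7.02%, CGCGCG at 6.66%, CCCCGC at 8.48% and CGCACG at 5.41%. Some of these overlap each other. At least 1 of them was found at 25.7% of the other summits and in 4.84% of their flanks. Among the summits of the 8 genes, 6 of 23 had at least 1 of these words, in let-526, zfp-1, din-1 and lin-59. The strongest site of bet-2 and the strongest site of zfp-1, printed above, had none of them. The word GAGAGA, looked up because runs of it are known as binding sites of GAGA factors in Drosophila, was at 10 of 23 summits (43.5%), in 6 of the 8 genes, and at 8 of their 23 flanks (34.8%). Near the other summits it was at 24.9%, and in their flanks at 8.95%. In the 8 genes the word was thus found at nearly as many flanks as summits. Not all of these flanks lie away from peaks: those of the zfp-1 summits at 8502 and 8730 bp overlap the windows of the next summits, 228 and 297 bp on. Of the let-526 summits at 3978 and 4178 bp, 200 bp apart, the flank of one overlaps the window of the other. The words TTAGGC and CACGTG were at 0 of 23 summits, against 8.79% and 2.03% of the other summits. A word that is found is a match of letters and not a shown binding site.

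Other genes of chromatin regulation were listed by complex or mark, 94 in all, of which 91 were matched to the annotation by name. A reproducible summit was present for 30 of the 91, and for 22 of the 83 that are not among the 8 genes (26.5%), against 17.8% of genes length-matched to those 83. The counts given next for each list include any of the 8 genes, which were chosen for their peaks, so the count without them follows each time with the share of genes length-matched to those others. The lists overlap only slightly and were written with earlier results of these data known. The SWI/SNF list, to which let-526 belongs, had 4 of 13 genes with a summit, and 3 of 12 without let-526, against 16% of length-matched genes. The others of the 4 were pbrm-1, the polybromo subunit, with 374.3 in an intron, swsn-7, the relative of ARID2, with 343.7, and swsn-3 with 177.2. The list of the NuRD and MEC complexes, to which lin-40 belongs, had 4 of 10, and 3 of 9 without lin-40, against 15.8%. The 3 others were egl-27, the other MTA gene, with 279.6 and 3 summits, and the histone-binding proteins lin-53 and rba-1, which share 1 summit of 146.7. Here lin-40 was the weakest of the 4.

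Bromodomain proteins outside SWI/SNF had a summit in 5 of 8 genes, and in 3 of 6 without the BET genes, against 25.4%. The signals were 293.7 for nurf-1, 249.9 for the acetyltransferase gene cbp-1 and 192.7 for baz-2, and the 2 BET genes were the strongest and the weakest of the 5. For H3K4 and trithorax-group proteins, to which lin-59 belongs, it was 5 of 9, and 4 of 8 without lin-59, against 18%. The next after lin-59 were set-16, an MLL-type methyltransferase, with 185.9, wdr-5.1 with 153.0 and ash-2 with 131.2. The list of ZFP-1 and DOT1 proteins had 2 of 6, and 1 of 5 without zfp-1, against 14.4%. The other one was dot-1.4, whose summit of 173.7 lay within 250 bp of a short noncoding gene. The gene of the ZFP-1 partner DOT-1.1 had none. Among corepressors it was 2 of 9, lsy-22 and din-1 themselves, and 0 of the other 7, which include unc-37, the Groucho gene, against 19.6%. For genes of H3K36, H3K9 and H3K27 methylation it was 4 of 13, against 17.5%, led by the HP1 gene hpl-2 with 330.0, jmjd-3.1 with 159.1 and jmjd-2 with 133.7. Histone deacetylases and sirtuins had 2 of 12, against 15.3%, hda-6 with 200.3 and hda-4 with 136.0. Other ATP-dependent remodellers had 2 of 6, against 21.1%, chd-7 with 414.8 and ruvb-1 with 118.1, and MYST acetyltransferases and their partners had 0 of 6, against 18.1%. The strongest summit of some listed genes lay far before them: 4822 bp upstream for hda-6, 4709 bp for jmjd-2 and 3704 bp for hpl-2. For baz-2, wdr-5.1 and chd-7 it lay 3591, 3551 and 2834 bp upstream. Others lay nearer, within 500 bp upstream for swsn-3, lin-53, set-16 and ruvb-1, or in introns for pbrm-1 and nurf-1. A summit in a window is thus not shown to belong to that gene. These counts are small and no test was made. Of the listed genes outside the 8 the strongest was thus chd-7, below let-526, bet-2, zfp-1 and din-1 and above lin-59, lsy-22, lin-40 and bet-1. Among those outside the 8 the ash-2 summit had no match in replicate 7. In replicate 6 ruvb-1 stood at rank 3429 and jmjd-2 at rank 1975, and in replicate 7 hda-4 stood at rank 2283, all outside the top list. The strongest summits of the others named with a signal were in both top lists.

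**Figure D4:**
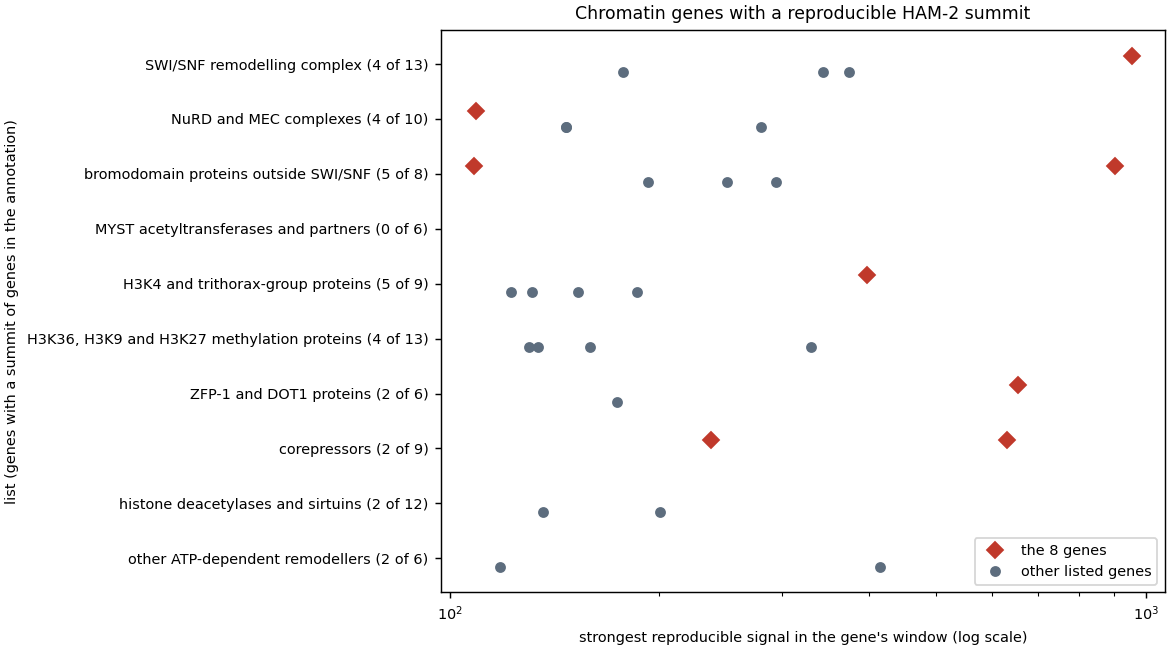
Strongest reproducible signal in the window (horizontal axis, log scale) of each listed chromatin gene that has a reproducible summit, by list (rows, with the number of genes with a summit of those in the annotation). Red diamonds are the 8 genes and grey points the other listed genes; the 4 highest values are those of let-526, bet-2, zfp-1 and din-1, and the row of MYST acetyltransferases is empty.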

How the data were processed

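ChIP-seq peak lists of tagged HAM-2 in embryos were analysed: 1 list for each of 2 replicates, 1 pooled list and 1 reproducible list, deposited by the authors with a signal for each peak on the ce11 assembly, per the labels. The sources used here give no aligner, caller or depth, which leaves the precision of single signals unknown. The −log10 q-value column deposited by the authors was not used to rank peaks.

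The members and lists were chosen with earlier results of these data known. Gene models are those of Ensembl release 115. Gene parts were taken in the order exon of any transcript, intron, upstream. A pooled summit was matched to the strongest replicate peak with a summit within 100 bp. Length-matched genes have 0.8 to 1.2 times the span. Genes named are the 8, the most alike gene of each, genes that share a summit by window, and the 3 strongest other genes of each list, and others where a count is small, chosen after their values were seen. Python 3.11.15, numpy 2.4.6, pandas 2.3.3 and matplotlib 3.10.9 were used. On simulated peaks, planted counts and signals were recovered for 120 of 120 genes and gene parts for 365 of 365 summits.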

Additional observations from a re-analysis of the deposited data

How the results depend on the processing

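Results were recomputed under other windows, peak sets, matching and transcripts. Of 55 alternatives for the main values 32 stayed within 1 SD between replicates, or 1.5 times for counts, and of 72 for summit counts of single genes 59 did. The SD is that of 2 values, each from the top list of 1 replicate. For the strongest-signal percentile it was only 0.0633, so very small changes fall outside it. The count of 32 therefore says little about stability. The median percentile of the 8 genes among length-matched genes was 98.7 by strongest signal and 93.1 by number of summits, and 65.2% of summits were in introns. With 2000 bp upstream the percentiles were 98.8 and 94.4. With gene bodies only they were 66.7 and 64.9, 4 of 8 genes had a summit (let-526, zfp-1, lsy-22 and, with 1, din-1), and 93.8% were in introns. Without peaks near short noncoding genes they were 99.1 and 90.9, with 71.4% in introns and 2 summits for din-1. With each summit given to 1 gene they were 98.9 and 95.3, and among genes of the same chromosome 97.2 and 94.2. The strongest-signal percentile was 99 with a wider span and 98.5 for the 200 genes nearest in span. With the upper 50% of reproducible peaks the number percentile was 96.2 and the intron share 68.8%, and bet-1 and lin-40 had 0 summits. With the pooled list taken to 2 times the length, these values were 94.5 and 56.2%, let-526 and zfp-1 had 8 summits each, and bet-2 and lin-59 had 2 each. With the longest coding transcript alone 69.6% were in introns. Leaving out 1 replicate gave a strongest-signal percentile of 98.4 to 98.5 and an intron share of 65.2% to 69.6%. Without replicate 6, bet-1 and lin-40 had 0 summits in the top list. No paired analysis was possible because there is a single group.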
